A study of Homo sapiens with 28 samples.

Results

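The genes described here encode 7 tubulins and 1 regulator of microtubule assembly: the beta-tubulin isotypes TUBB2A, TUBB2B, TUBB3 and TUBB6, the alpha-tubulins TUBA1A and TUBA1C, gamma-tubulin (TUBG1), and stathmin (STMN1). They are 8 of the 19775 genes that the platform annotation names, and all 13 probe sets whose gene symbol holds a member were taken. Of these, 11 name a single gene, and 12 passed the filter on low signal. The set was assembled because TUBB2B fell strongly in these arrays, that is, its members were chosen from the signals of these same arrays. The values of the probe sets annotated to TUBB2B are therefore given as a description with no test, which leaves 10 tested probe sets of 7 genes.

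The data are 28 single-colour Affymetrix arrays of RNA from derivatives of SK-N-AS, an established neuroblastoma line. The MYCN line (SK-N-AS-tet, MYCN) carries a MYCN transgene that doxycycline switches on, and 3 replicate arrays were made at each of 7 times labelled 0, 4, 8, 24, 48, 96 and 192 (no unit is stated). The mock line (SKNAS-pcDNA6TR) received doxycycline too and has 1 array at each of the same times. All cells grew in DMEM with fetal calf serum. The labels say neither whether a derivative is a single clone nor that the replicates were grown as separate cultures. The p-values thus reflect the spread among these samples only, and part of it may be technical.

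Microtubules are polymers of alpha- and beta-tubulin dimers, and gamma-tubulin, in a ring complex, is the template from which they grow. Vertebrates make several isotypes of each chain from separate genes. TUBA1A, TUBB2A, TUBB2B and TUBB3 are known above all from developing neurons, TUBA1A and TUBB2B being mutated in human disorders of cortical development, while TUBB6 and TUBA1C are made in many cell types. Stathmin binds free tubulin dimers and favours depolymerisation; it is inactivated by phosphorylation in mitosis.

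The sequences just upstream of 4 of these genes are shown because MYC-family proteins are known to bind the E-box CACGTG. Of these genes, 2 were picked because they fell most and 2 because a window of theirs holds that motif. Whether the motif goes with a change of signal was not tested. The sequences are the 250 bases before a transcription start in RefSeq (build GRCh38.p14), on the coding strand. All 8 genes matched, with 14 windows in all. Capitals mark CACGTG, which is the same on both strands, and CCAAT on either strand (ATTGG when read on the printed strand); the motifs share no base.
TUBB2B, chr6:3227654-3227903, minus strand: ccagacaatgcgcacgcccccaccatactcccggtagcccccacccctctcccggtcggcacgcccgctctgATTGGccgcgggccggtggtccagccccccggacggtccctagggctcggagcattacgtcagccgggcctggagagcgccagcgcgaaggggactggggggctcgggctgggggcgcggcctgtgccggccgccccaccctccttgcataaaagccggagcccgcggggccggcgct
TUBA1A, chr12:49189081-49189330, minus strand: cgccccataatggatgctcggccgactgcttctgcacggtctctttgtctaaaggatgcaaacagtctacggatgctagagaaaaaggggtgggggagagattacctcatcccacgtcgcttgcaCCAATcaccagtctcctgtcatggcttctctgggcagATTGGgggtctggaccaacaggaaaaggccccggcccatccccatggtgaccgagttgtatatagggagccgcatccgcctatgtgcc
TUBA1C, chr12:49264832-49265081, plus strand: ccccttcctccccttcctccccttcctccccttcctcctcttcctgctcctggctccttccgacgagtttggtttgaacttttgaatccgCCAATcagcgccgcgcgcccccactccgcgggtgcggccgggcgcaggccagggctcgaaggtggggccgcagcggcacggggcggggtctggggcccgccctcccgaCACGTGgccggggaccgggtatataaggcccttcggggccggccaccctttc
STMN1, chr1:25906420-25906669, minus strand: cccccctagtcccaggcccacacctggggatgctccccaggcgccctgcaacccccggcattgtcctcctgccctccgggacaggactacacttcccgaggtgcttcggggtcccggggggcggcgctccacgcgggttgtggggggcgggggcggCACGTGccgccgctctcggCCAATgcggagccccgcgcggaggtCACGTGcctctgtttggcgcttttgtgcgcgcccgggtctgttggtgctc

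CACGTG was found in 2 of the 14 windows, those of TUBA1C and STMN1 printed here. In STMN1 its copies begin 94 and 50 bases before the start, and in TUBA1C the single copy begins 52 bases before it. No CACGTG lay in the windows of TUBB2B and TUBA1A, which have a single window each, whereas TUBA1C and STMN1 have several. The windows of TUBB2A, TUBB3, TUBB6 and TUBG1 held none either. By the tests against time 0 given below, STMN1, with the motif, was lower at times 24 and 192. Without it, TUBB2A was lower at time 48, while TUBB3, TUBB6 and TUBG1 passed at no time. The E-box occurred in 6.35% of all 35116 RefSeq windows of this length. The CCAAT motif stood in 9 of the 14 windows, against 32.0% of all windows. Of these 9, 2 are overlapping windows of TUBA1C that hold the same copy. The windows with CCAAT belong to 7 of the 8 genes, a count per gene to which the share of windows does not apply. It begins 178 bases before the start of TUBB2B, and 125 and 88 bases before that of TUBA1A. These matches describe letters in the reference and show no binding.

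The induced gene was measured first. MYCN (209756_s_at) read 3193 ± 112 at time 192 in the MYCN line and 84 ± 17.5 at its time 0 (SD, n = 3 each), and 1.6 to 3.0 in the mock line. Its paralog MYC (202431_s_at) read 68.4 ± 58.2 at time 192 and 221 ± 88.7 at time 0, and 239.8 to 298.4 in the mock line. The neuroblastoma label was checked against marker genes. Of the 12 noradrenergic neuroblast markers measured, 7 read over 100 on some array of either line. PHOX2A averaged 4.37 and 6.63 at times 0 and 192 in the MYCN line, against 768 and 1133.3 on the mock arrays. HAND1 averaged 11.97 and 12.57 in the MYCN line, against 500.4 and 345.8. These markers thus differed between the lines already at time 0. By contrast, GATA3, ISL1 and TBX2 averaged over 100 in the MYCN line at both times. TH and DBH, which make catecholamines, stayed at or under 6.6 and 8.7 on every array. All 12 mesenchymal markers read over 100 on some array, and the 4 Schwann cell markers measured did not exceed 31.8. The labels name no batch. The signal of the spiked control bioD split the arrays into 2 groups, replicates 1 and 2 of the MYCN line (1544 to 1941) and replicate 3 with all mock arrays (2322 to 2770), and these control-signal groups stand in for batches here.

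Across the 10 tested probe sets, few differed from time 0. By limma with an adjusted p under 0.05, none was called at time 4, when 0.0061% of all 32768 probe sets were called, and none at time 8, against 0.256% of all (0.204% higher and 0.0519% lower; 0 members had an unadjusted p under 0.05 at either time). At time 24, 1 member probe set was lower, against 3.23% of all called (1.8% higher and 1.43% lower). At time 48, 2 were lower, against 7.09% of all (3.31% higher and 3.78% lower). At time 96, 1 was lower, against 12.8% of all (5.48% higher and 7.28% lower). By time 192, 2 were lower, against 14.9% of all (6.57% higher and 8.32% lower). No member was called higher at any time. The members' median log2 change at time 192 was -0.05, and that of all probe sets tested was -0.01. All 6 contrasts share the same 3 arrays of time 0.

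**Figure D1:**
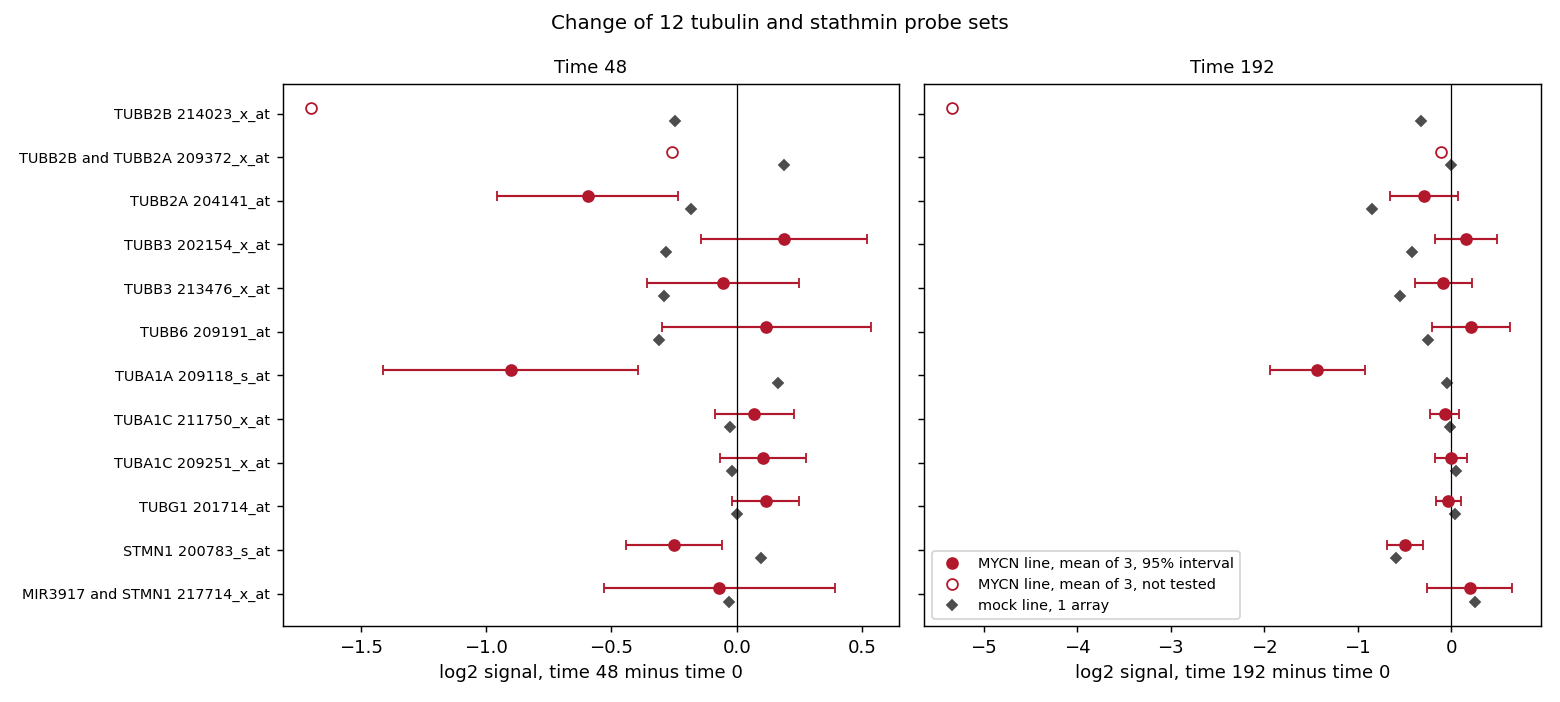
Log2 change from time 0 at times 48 and 192 for the 12 member probe sets above the filter. Red circles are the MYCN line with its 95% confidence interval (open where no test was made), and grey diamonds are the single mock array; TUBB2B and TUBA1A lie farthest to the left at time 192, at -5.33 and -1.43.

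Of the beta isotypes, TUBB2B is described first. Its probe set 214023_x_at, the only one annotated to TUBB2B alone, chose the gene set, and its x_at suffix marks probes that also match other transcripts. In replicate 1 of the MYCN line it read 119.5, 120.8, 98.7, 92.1, 24.3, 15 and 11.9 at the 7 times from 0 to 192. In replicate 2 it read 98.6, 61.9, 74.4, 51.7, 17.0, 8.5 and 0.5. In replicate 3 it read 222.3, 205.0, 206.4, 160.8, 184.7, 35.3 and 6.7. Every replicate was lower at time 96 than at time 0, but replicate 3 was still near its starting value at time 48, when the other replicates had already dropped. The mock line held between 27.2 and 34.8 throughout, below every MYCN-line array of times 0 to 24 and above every one of time 192.

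Mean TUBB2B signal in the MYCN line at times 24, 48, 96 and 192 was 101.5 ± 55.2, 75.3 ± 94.8, 19.6 ± 14 and 6.37 ± 5.71, against 146.8 ± 66.2 at its time 0 (SD, n = 3 each). On the log2 scale the changes were -0.59, -1.70, -3.06 and -5.33 at these 4 times, and those of the mock array were -0.35, -0.25, 0.01 and -0.33. The replicates spread widely around these means. At time 48 the changes within replicates 1, 2 and 3 were -2.30, -2.54 and -0.27, and at time 192 they were -3.33, -7.62 and -5.05. The last mean lies under the filter level of 7.43, where signals are no longer well measured, so the size of the final change is uncertain. With 16 added to each signal it was -2.82, a 7.07-fold lower level, and without replicate 2, whose last signal was 0.5, it was -4.19. In cultures, fewer cells that make a transcript and less of it per cell cannot be told apart.

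**Figure D2:**
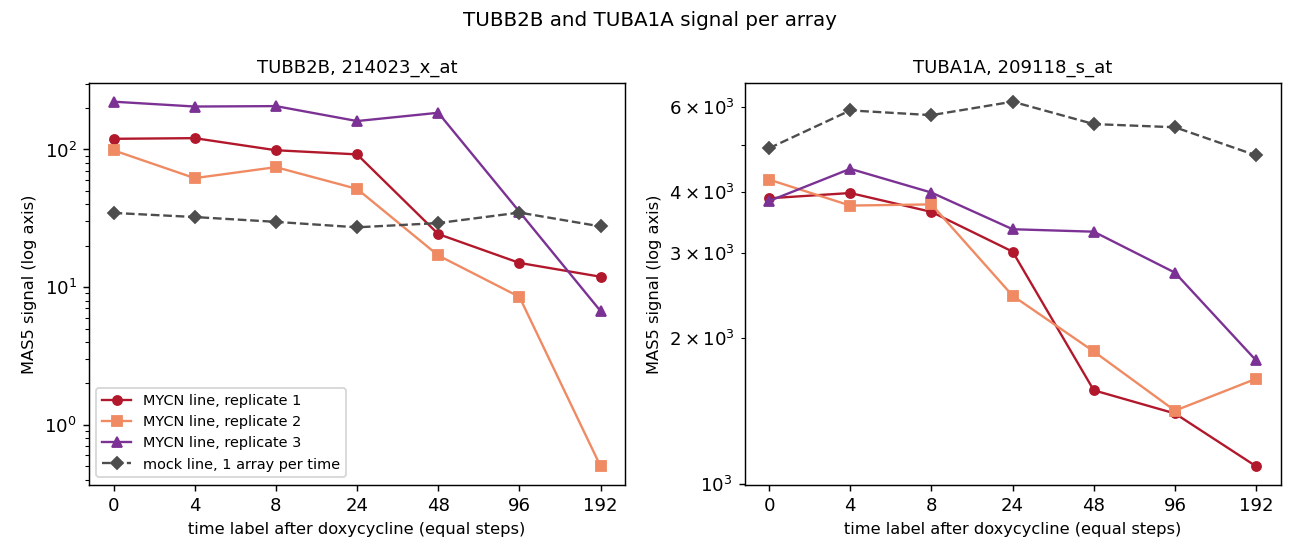
Signal of TUBB2B (214023_x_at) and TUBA1A (209118_s_at) on a log axis against the 7 times, drawn in equal steps, for each replicate of the MYCN line and for the mock line. TUBB2B ends between 0.5 and 11.9 in the MYCN line against 27.6 in the mock line, and TUBA1A ends between 1087.2 and 1798.4 against 4769.3.

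A second probe set that names TUBB2B also names TUBB2A, and it did not show this fall. The suffix x_at marks probes that also match other transcripts, which tubulin isotypes, nearly identical over much of their coding sequence, make likely. Signals of 209372_x_at lay between 156.4 and 265.5 over the MYCN line and between 178.2 and 296.1 in the mock line. Its mean in the MYCN line was 225 ± 27.2 at time 192 and 241.6 ± 10.5 at time 0 (SD, n = 3 each), a log2 change of -0.11. Its lowest mean came at time 96, at 184 ± 24.1, a change of -0.40. The platform table does not say how much of this signal each gene gives. The 2 genes lie close together on chromosome 6, with no other protein-coding gene between them in RefSeq.

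TUBB2A itself, a close paralog of TUBB2B, was lower in the middle of the series, and the decline was present in the mock line too. Its own probe set 204141_at read 647.4, 754.2, 590.1, 453.7, 467.0, 487.0 and 722.7 in replicate 1 of the MYCN line from time 0 to 192. Replicate 2 read 638.0, 614.8, 473.1, 405.1, 364.5, 475.9 and 468.3. Replicate 3 read 592.0, 597.6, 459.0, 397.9, 417.0, 357.1 and 394.6. All arrays of times 8 to 96 were below all 3 of time 0, whereas at time 192 replicate 1 was above them and the others below. The mock line read 972.1, 948.9, 871.5, 725.8, 856.8, 630.4 and 540.3, lowest at its last time.

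The log2 change of TUBB2A at times 24, 48, 96 and 192 was -0.58, -0.59 (SE 0.17), -0.52 and -0.29, with limma adjusted p = 0.0738, 0.0408, 0.0522 and 0.308. Only time 48 was called. In the mock line the changes at these 4 times were -0.42, -0.18, -0.63 and -0.85. Its slope over the 7 mock arrays was -0.13 log2 units per step from one time to the next (SE 0.02, limma adjusted p = 0.0337), the sole member called for the mock trend, where 0.998% of all probe sets were called (0.534% higher and 0.464% lower). The slopes of the 2 lines differed by 0.05 (MYCN line minus mock line, 95% confidence interval -0.05 to 0.16, limma adjusted p = 0.601), so no difference between the lines was detected.

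The TUBB2A call at time 48 held in 8 of 18 processing settings, and was lost with arrays scaled to equal medians (-0.54, limma adjusted p = 0.303). It ended when any of the 6 arrays of times 0 and 48 was left out (log2 change -0.68 to -0.50, limma adjusted p 0.0574 to 0.179). The mock trend was lost without the array of time 4, 8, 24, 96 or 192 (-0.13, -0.13, -0.13, -0.13 and -0.11). At time 192 leaving out replicate 1 of that time gave a called change of -0.54 (limma adjusted p = 0.0251).

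TUBB3, the isotype that marks neurons, showed no called change at any time. Both of its probe sets carry the x_at suffix, so other beta-tubulin transcripts may add to them. Probe set 202154_x_at read 1177.4, 1162.6 and 1212.6 at time 192 in replicates 1, 2 and 3 of the MYCN line, against 1117.0, 965.5 and 1115.4 at its time 0. The mock line read 983.4, 993.2, 981.2, 802.2, 809.3, 739.7 and 733.1 over the 7 times. Thus the MYCN line ended slightly above its starting arrays while the mock line ended below its own. The log2 change at time 192 was 0.15 in the MYCN line (95% confidence interval -0.18 to 0.49, limma adjusted p = 0.607) and -0.42 on the mock array.

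The slopes of this TUBB3 probe set differed between the lines by 0.12 log2 units per step (SE 0.04, 95% confidence interval 0.04 to 0.19, limma adjusted p = 0.0383), MYCN line minus mock line. In this test 13.5% of all probe sets were called (6.23% with a positive and 7.25% with a negative difference). The call held in 6 of 11 settings; it was lost without replicate 2 (0.11, adjusted p = 0.120), and the difference was 0.08 with limma adjusted p = 0.200 within the control-signal group that holds replicate 3 and the mock line. The second TUBB3 probe set did not pass: 213476_x_at read 1671.9, 1553.8 and 1246.9 at time 192 and 1672.8, 1415.6 and 1630.3 at time 0. Its difference in slope was 0.06 (95% confidence interval -0.01 to 0.13, limma adjusted p = 0.302), and 0.09 without replicate 3 (adjusted p = 0.043). For the first probe set the arrays also differ in quality measures between lines: the ratio of the 3′ to the 5′ actin probes was 1.10 to 1.31 in the MYCN line and 1.33 to 1.55 in the mock line. Its part in the difference between lines was not tested.

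TUBB6, a widely expressed beta isotype, split by replicate. Probe set 209191_at read 1191.5, 1315.6, 1252.5, 882.8, 1541.2, 1489.7 and 1374.9 in replicate 1 of the MYCN line, and 986.2, 1280.4, 1079.1, 1095.2, 1297.3, 1479.3 and 1397.6 in replicate 2. Replicate 3 read 1086.3, 1096.1, 1124.1, 918.2, 817.1, 888.2 and 1021.2, and the mock line 855.5, 920.6, 825.7, 666.6, 690.2, 642.2 and 720.4. From time 48 on, replicates 1 and 2 were above every array of time 0, and replicate 3 was below its own starting value. The within-replicate log2 changes at time 96 were 0.32, 0.58 and -0.29. The mean change at that time was 0.21 (95% confidence interval -0.21 to 0.62, limma adjusted p = 0.59), and at time 192 it was 0.21 (adjusted p = 0.578).

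Without replicate 3, which lies in the other control-signal group, TUBB6 passed the test at time 96 (0.45, limma adjusted p = 0.0231) and in the difference of slopes (0.13, adjusted p = 0.0177). With all arrays that difference was 0.10 (adjusted p = 0.208), and within the control-signal group of replicate 3 and the mock line it was 0.03 (adjusted p = 0.738). For replicate 3, the control-signal group and the replicate itself cannot be told apart.

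**Figure D3:**
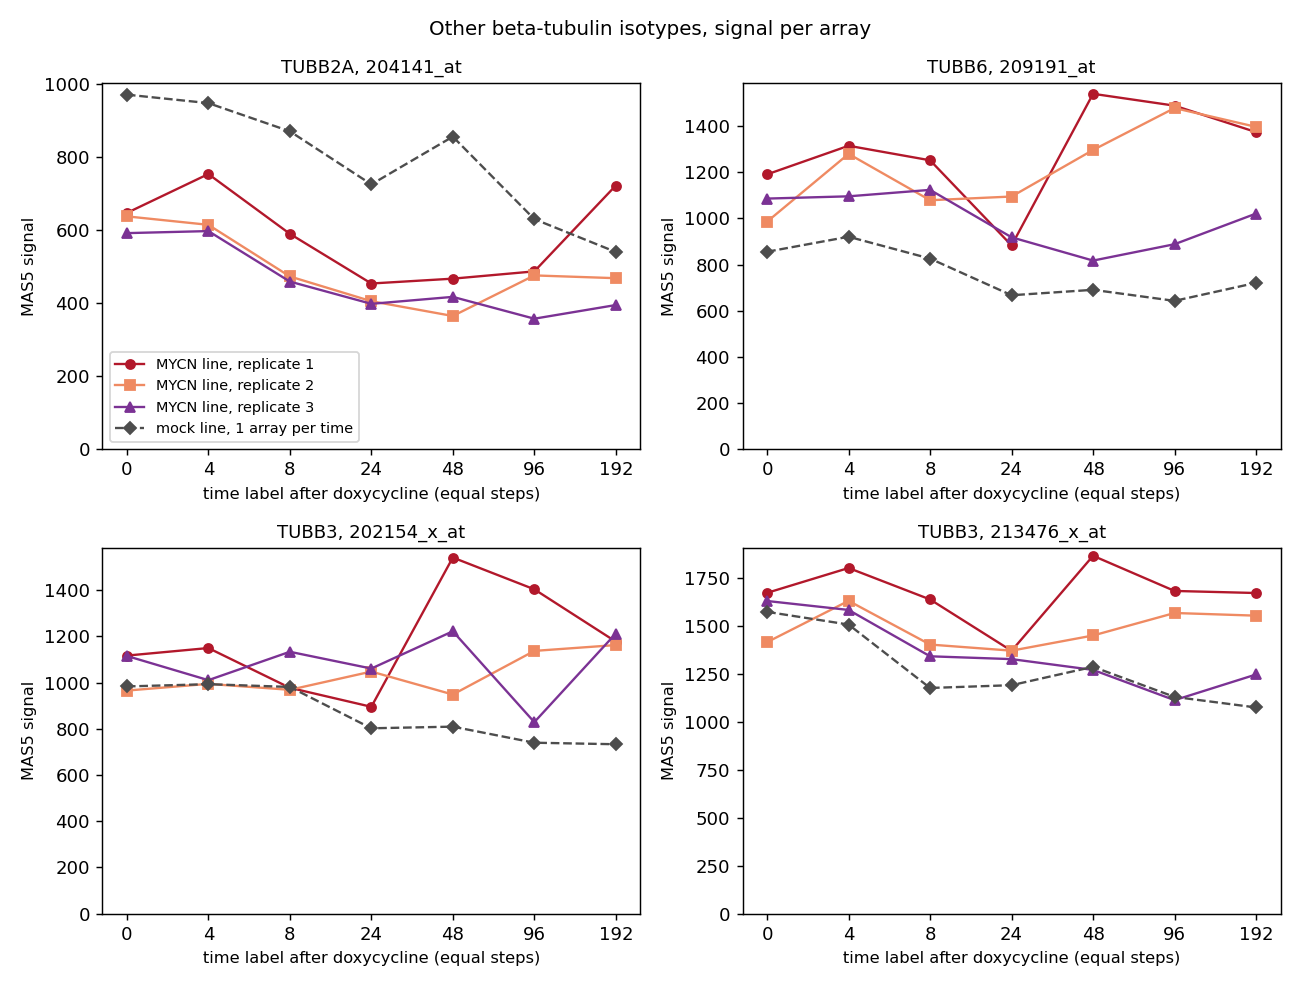
Signal of the probe sets of TUBB2A, TUBB3 and TUBB6 against the 7 times, drawn in equal steps, for each replicate of the MYCN line and for the mock line. In the MYCN line TUBB2A lies between 364.5 and 467.0 at time 48 against 592.0 to 647.4 at time 0, and TUBB6 at time 96 reads 1489.7 and 1479.3 in replicates 1 and 2 against 888.2 in replicate 3.

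Of the alpha isotypes, TUBA1A fell in the MYCN line from time 48 on, and TUBA1C did not change detectably. The platform annotation names TUBA1A alone for its probe set, but whether the probes also match other alpha-tubulin transcripts was not checked. TUBA1A (209118_s_at) read 3889.1, 3987.9, 3645.5, 3017.7, 1560.7, 1397.7 and 1087.2 in replicate 1. Replicate 2 read 4250.4, 3757.0, 3777.9, 2447.0, 1877.2, 1416.4 and 1648.7. Replicate 3 read 3838.6, 4474.2, 3996.5, 3357.0, 3318.0, 2730.5 and 1798.4. All arrays of times 24 to 192 lay below all 3 of time 0, and replicate 3 was the highest of each of these times, as for TUBB2B up to time 96. The mock line read 4934.7, 5907.1, 5775.4, 6157.2, 5535.4, 5452.1 and 4769.3, above every array of the MYCN line.

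At times 48, 96 and 192 TUBA1A averaged 2252 ± 937, 1848 ± 764 and 1511 ± 375, against 3993 ± 225 at time 0 (SD, n = 3 each). The log2 changes were -0.90 (SE 0.24, limma adjusted p = 0.028), -1.18 (adjusted p = 0.00267) and -1.43 (95% confidence interval -1.94 to -0.92, adjusted p = 4e-04) at times 48, 96 and 192, the last a 2.70-fold lower level. At time 24 the change of -0.45 did not pass (limma adjusted p = 0.384). On the mock arrays the changes at times 24, 48, 96 and 192 were 0.32, 0.17, 0.14 and -0.05. All 3 replicates moved the same way: at time 192 their own changes were -1.84, -1.37 and -1.09, and at time 48 they were -1.32, -1.18 and -0.21.

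The slope of TUBA1A was lower in the MYCN line than in the mock line by 0.25 log2 units per step (difference -0.25, SE 0.06, limma adjusted p = 0.00386). This call held in all 11 settings tried, and within the control-signal group of replicate 3 and the mock line the difference was -0.16 (adjusted p = 0.0228). The call at time 192 held in all 18 settings, with adjusted p up to 0.0300. That at time 96 was lost without replicate 1 (-1.04, limma adjusted p = 0.0536) or replicate 2 (-0.98, adjusted p = 0.165). The call at time 48 held in 10 of 18 settings. It was lost without any array of time 0 or without the time 48 array of replicate 1 or 2 (-0.93 to -0.68, limma adjusted p 0.0628 to 0.172). Leaving out replicate 1 or 2 as a whole also ended it (-0.69 and -0.76, limma adjusted p = 0.327 and 0.388), as did arrays of the 2 times only (adjusted p = 0.0747). Marker genes of other cell states were read on the same arrays. The summed signal of the 12 mesenchymal markers was 14791 to 16775 at time 192 and 20495 to 24608 at time 0, and 18384 to 20638 in the mock line. Bright genes weigh most in such sums, and the markers did not move as a set. In the MYCN line COL3A1 averaged 2821 at time 192 and 6328 at time 0, and CD44 averaged 2021 and 794. Of these 12 markers 4 were lower and 2 higher at time 192 by limma (adjusted p under 0.05), against 8.32% lower and 6.57% higher of all probe sets, with log2 changes of -2.99 for FN1 (fibronectin), -1.21 for COL3A1 (a fibrillar collagen) and 1.80 for FOSL1 (an AP-1 factor). The 12 noradrenergic markers measured summed to 1245 to 1413 at time 192 and 1577 to 2132 at time 0, and 4054 to 4814 in the mock line. TBX2, the brightest of them in the MYCN line at both times, averaged 583 at time 192 and 1096 at time 0. GATA3, the next brightest, averaged 393 and 300, so the sum does not describe the markers as a set. Of the 9 tested, 2 were higher and 1 lower at time 192, against the same shares of all probe sets: GATA2 (0.84), GATA3 (0.39) and TBX2 (-0.89). The 4 Schwann cell markers summed to 13.4 to 27 at time 192 and 15.2 to 21.2 at time 0, and 18.6 to 35.4 in the mock line, and the single marker tested was not called. The part of these values in the TUBA1A result was not tested.

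TUBA1C, which encodes a nearly identical protein and is the neighbour of TUBA1A on chromosome 12, passed no test at any time. Signals of 209251_x_at lay between 3630 and 4639.5 in the MYCN line and between 3891.4 and 4163.9 in the mock line. Those of 211750_x_at lay between 3719.9 and 4687.6 in the MYCN line and between 4013.1 and 4492.6 in the mock line. At time 192 the log2 changes were 0.00 (95% confidence interval -0.17 to 0.17, limma adjusted p = 0.995) and -0.07 (95% confidence interval -0.23 to 0.09, adjusted p = 0.616). Both carry the x_at suffix, so other alpha-tubulin transcripts may add to them. A fall of probe-set signal as deep as that of TUBA1A lies outside both intervals, but they do not bound a change of TUBA1C alone.

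TUBG1, which helps to nucleate microtubules at the centrosome, stayed within a narrow range. Probe set 201714_at read 819.0, 813.9 and 848.7 at time 192 and 838.7, 860.0 and 840.2 at time 0 in replicates 1, 2 and 3, with 663.0 to 781.2 over the mock line. At time 48 it read 904.7, 943.4 and 901.7, above all 3 arrays of time 0. That change was 0.11 on the log2 scale and did not pass (95% confidence interval -0.02 to 0.25, limma adjusted p = 0.336). At time 192 the change was -0.03 (95% confidence interval -0.17 to 0.10).

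In the MYCN line STMN1 was lower at times 24 and 192 than at time 0. Its main probe set 200783_s_at read 834.6, 961.4, 964.3, 622.6, 700.5, 706.3 and 519.8 in replicate 1. Replicate 2 read 807.4, 913.5, 871.6, 603.6, 681.8, 712.5 and 670.9, and replicate 3 read 784.7, 878.7, 777.2, 602.7, 656.4, 663.9 and 545.3. At times 24 to 192 every array was below the 3 of time 0, while at time 4 every array was above them. The mock line read 540.7, 653.1, 606.6, 605.8, 578.2, 616.5 and 359.5, with its low value at the last time alone.

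At times 24, 48, 96 and 192 STMN1 averaged 610 ± 11.2, 679.6 ± 22.1, 694 ± 26.5 and 579 ± 80.9, against 809 ± 25.0 at time 0 (SD, n = 3 each). The log2 changes at times 24 and 192 were -0.41 (SE 0.09, limma adjusted p = 0.0164) and -0.49 (adjusted p = 9.39e-04). Those at times 48 and 96, -0.25 and -0.22, did not pass (limma adjusted p = 0.108 and 0.13). On the mock arrays the change was 0.16 at time 24 and -0.59 at time 192. The slopes of the lines differed by -0.02 (95% confidence interval -0.11 to 0.06, limma adjusted p = 0.795), so no difference in trend was detected. The call at time 192 was lost without replicate 1 (-0.40, adjusted p = 0.0681) and with arrays scaled to equal medians (-0.46, adjusted p = 0.125). The call at time 24 held in 10 of 18 settings. It was lost with equal medians (-0.36, limma adjusted p = 0.459), without replicate 1, 2 or 3 as a whole (-0.42 to -0.40), and without the time 0 array of replicate 1 (-0.38) or any array of time 24 (-0.42 to -0.40; limma adjusted p 0.0532 to 0.0649).

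The other STMN1 probe sets add little. Probe set 217714_x_at, annotated to STMN1 and the microRNA gene MIR3917, read 77.9 to 156.1 in the MYCN line and 84.5 to 201.5 in the mock line and was not called at any time. Probe set 1552803_a_at read 0.5 to 13.8 and did not pass the filter. STMN1 is also a gene of dividing cells, so mitosis genes were read beside it: at time 24 none of 17 was called, against 3.23% of all probe sets. At time 192, TOP2A (topoisomerase II alpha) and KIF11 (a spindle motor) were lower, against 8.32% of all, with a median log2 change of -0.09 over the 17. The changes of TOP2A and KIF11 were -0.21 and -0.43, and the TOP2A call was lost when any of the 6 arrays of times 0 and 192 was left out (-0.24 to -0.18). Their part in the STMN1 result was not tested.

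**Figure D4:**
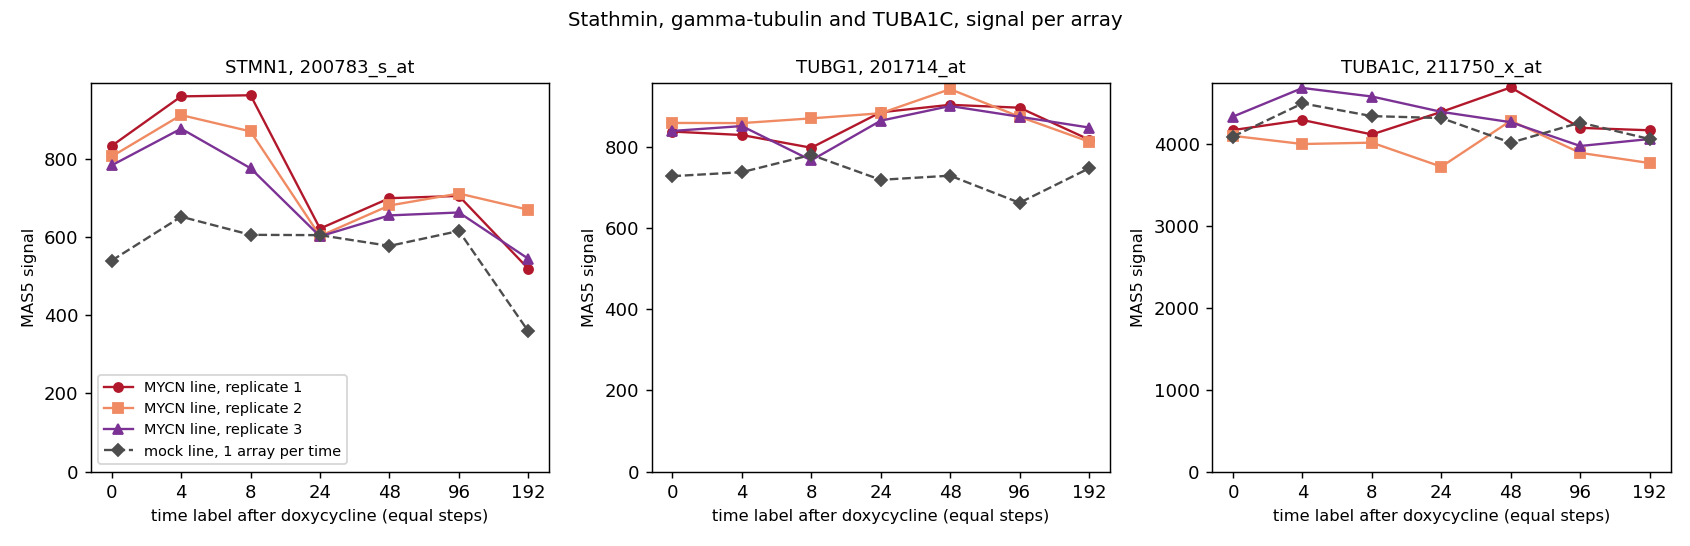
Signal of the probe sets of STMN1, TUBG1 and TUBA1C against the 7 times, drawn in equal steps, for each replicate of the MYCN line and for the mock line. In the MYCN line STMN1 lies between 602.7 and 622.6 at time 24 against 784.7 to 834.6 at time 0, while TUBA1C (211750_x_at) stays between 3719.9 and 4687.6.

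Over the 21 arrays of the MYCN line, Pearson's r between log2 signals of the members' brightest probe sets lay between -0.55 and 0.81. It was 0.81 for TUBB2B with TUBA1A, 0.80 for TUBB3 with TUBB6, 0.71 for TUBB2A with TUBB3 and 0.66 for TUBA1A with STMN1. It was 0.53 for TUBB2A with STMN1 and for TUBB2B with TUBA1C, and lowest, at -0.55, for TUBA1A with TUBB6. These arrays share time points, control-signal groups and scaling, so the correlations are descriptions. By the same measure the genes most like TUBB2B were TLE2 (0.94), LOXL3 (0.93) and IGFBP2 (0.93). Those most like TUBA1A were PCDH18, SOX11 and GUCY1B1 (0.98 each), SOX11 being a transcription factor of the developing nervous system.

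Of 15 further tubulins, 11 were measured and 8 tested; none was called at any of the 6 times (limma, adjusted p under 0.05; 14.9% of all probe sets were called at time 192), and 1 was called lower in the difference in trend, against 7.25% of all. Their median log2 change at time 192 was 0.16. Among the relatives of stathmin, STMN3 (SCLIP) was the single gene bright enough to test. It read 127 ± 13.5 at time 192 and 302 ± 45.2 at time 0 (SD, n = 3 each), a log2 change of -1.24 (SE 0.17, limma adjusted p = 4.12e-05), and 250.8 against 239.5 on the mock arrays of the same times. Its call held in all 18 settings. STMN2 and STMN4 did not exceed 22 and 19.9 on any array.

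Of 19 microtubule-associated proteins tested, 5 were lower and none higher at time 192 (limma, adjusted p under 0.05), against 8.32% and 6.57% of all probe sets. MAP2, the dendritic microtubule protein, read 271 ± 127 at time 192 and 939 ± 202 at time 0 (SD, n = 3 each), with 187.4 and 216.7 on the mock arrays. Its log2 change was -1.89, and the call was lost without replicate 2 (-1.80, limma adjusted p = 0.0530). MAP7, a kinesin cofactor, and DCLK1, a doublecortin relative, were dim at time 192, with means of 6.57 and 6.13 against 39.8 and 29.5 at time 0. Their log2 changes of -2.60 and -2.27 shrank to -1.30 and -1.04 with 16 added to each signal. Doublecortin itself stayed at or under 9.5.

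Genes of tubulin folding, nucleation and modification were read against the 6.57% of all probe sets called higher and 8.32% called lower at time 192. Of 19 folding factors, 2 were higher: PFDN4, a prefoldin subunit (0.48, limma adjusted p = 3.29e-04), and CCT3, a chaperonin subunit (0.22, adjusted p = 0.0157). Of 16 genes of the gamma-tubulin ring complex and augmin, 3 were higher and 1 lower. The first 3 were TUBGCP4 (0.51), HAUS7 (0.49) and HAUS3 (0.47). On the mock arrays HAUS7 was higher as well, at 847.1 at time 192 and 331.2 at time 0. There TUBGCP4 read 276.5 and 217.9, and HAUS3 read 114 and 128.7. The difference in trend between the lines was called for HAUS3 (limma adjusted p = 0.0135) but not for TUBGCP4 (adjusted p = 0.169) or HAUS7 (adjusted p = 0.466). Of 18 tubulin-modifying enzymes, TTL, which restores the terminal tyrosine of alpha-tubulin (0.38), and TTLL12 (0.46) were higher. Of 10 severing and depolymerising proteins, FIGNL1 was lower (-0.47).

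Some of these calls at time 192 depended on scaling or on single arrays. With arrays scaled to equal medians those of CCT3, PFDN4, HAUS3, TTL, TTLL12, FIGNL1, GATA2, GATA3, KIF11 and TOP2A were lost (limma adjusted p 0.0634 to 0.555). CCT3 lost its call without the time 0 array of replicate 2 (0.20). HAUS3 did so without that array (0.39) or the time 192 array of replicate 1 (0.40). TTL did so without the time 0 or the time 192 array of replicate 2 (0.35 and 0.33). TTLL12 did so without the time 0 arrays of replicates 2 and 3 or the time 192 array of replicate 3, each left out alone (0.36, 0.42 and 0.43). FIGNL1 did so without the time 192 array of replicate 3 (-0.39). GATA2 did so without the time 192 array of replicate 1 (0.62), the time 0 array of replicate 2 (0.70) or the time 192 array of replicate 2 (0.82). GATA3 did so without any array of replicates 1 and 3 at times 0 and 192 (0.27 to 0.41).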

How the data were processed

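Signals of 54675 probe sets on 28 arrays were used. Each deposited value is a linear intensity that the authors made with MAS5 and GCOS, per the submitters' processing notes, with versions not given in the sources used here. The mean signal after trimming 2% at each end averaged 100 over the 28 arrays, and no further scaling was applied. No columns were left unused and no arrays were identical (highest correlation 0.971). Control probe sets (62) were left out. The platform annotation names 1 gene for 41091 probe sets, of which 41037 matched a current RefSeq gene, several for 1801 and none for 11721.

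A floor of 0.1 replaced the 91 values that were 0 or negative, and log2 was taken. Those whose mean log2 signal reached the 40th percentile (a signal of 7.43) were tested, 32768 probe sets in all, with limma 3.58.1 (lmFit, eBayes with trend) in R 4.3.3. Times were compared with time 0 in a model of the MYCN line's 21 arrays (14 residual degrees of freedom). The mock trend was a slope over 7 arrays (5 degrees of freedom), on the step number of each time, and the difference in trend was tested as a line by step interaction over 28 arrays (24 degrees of freedom). Tests were two-sided. Benjamini-Hochberg adjustment ran over all probe sets tested, with calls at an adjusted p under 0.05. The fits were tested on simulated data.

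Alternatives were no filter and a filter at the 60th percentile, equal array medians, quantile normalization, 16 added to the signal, 1 probe set per gene, the replicate and the control-signal group (inferred from bioD; the labels name no batch) as a block, arrays of the 2 times only, log time, and each replicate or array left out. Deviations from the group means of same-numbered arrays at a time and at time 0 correlated at 0.104, 0.123 and 0.202 (replicates 1, 2 and 3) at time 4. At time 8 they correlated at 0.107, 0.138 and 0.210, and at each later time at least 1 correlation was under 0.1. Differently numbered arrays were not compared, and replicate 3 alone of the MYCN line lies in the other control-signal group. These values therefore cannot show whether the numbers pair arrays.

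The members and gene lists were chosen with earlier results of these data known. The rule named every member probe set, MYCN, MYC, the 3 called genes of each list with the smallest p at time 192, and the 3 genes most correlated with a member's brightest probe set. MAP1A, MAPRE2 and other called genes past these 3 are counted only.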

Additional observations from a re-analysis of the deposited data

Results flagged for a closer look

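The change with time differed between the MYCN line and the mock line for 2 member probe sets, by the interaction of line and time step in limma over 28 arrays. TUBA1A (209118_s_at) declined in the MYCN line relative to the mock line, with a difference in slope of -0.254 log2 units per step (adjusted p = 0.00386). TUBB3 (202154_x_at) ran the other way, with a difference of 0.116 (adjusted p = 0.0383), while the second TUBB3 probe set, 213476_x_at, gave 0.06 (adjusted p = 0.302). Other beta-tubulin transcripts may add to both, since both carry the x_at suffix. The mock line has 1 array at each time, and its arrays share a range of spiked control signal with replicate 3 of the MYCN line alone.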

How the results depend on the processing

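No result named here reversed while called under any alternative; 79 of 1938 recomputed values changed sign with a call in neither fit, 130 lost a call and 29 gained one. TUBA1A at time 192 was called throughout. The cause of the shifts below was not tested. Without a filter, 1 member probe set was called at time 48 (2 as reported), 0 by the mock trend (1) and 1 by the difference in trend (2). At the 60th percentile, and also with 16 added, 2 were called at time 96 (1) and 2 for the mock trend. With equal array medians 0, 1 and 1 were called at times 24, 48 and 192 (1, 2 and 2). Quantile normalization gave 2 at time 24, 3 at time 48, 3 at time 96 and 1 for the difference in trend. With 1 probe set per gene 2 were called at time 24 and 2 at time 96, and the control-signal group as a block gave the same, with 3 at time 48. Arrays of the 2 times alone gave 2, 1 and 2 at times 24, 48 and 96. Within the control-signal group that holds both lines 1 was called for the difference in trend. On log time 1 was called for the difference and 0 for the mock trend. Leaving out arrays gave 0 at times 4 and 8, 0 to 1 at time 24, 0 to 2 at times 48 and 96, 1 to 3 at time 192, 1 to 4 for the difference and 0 to 2 for the mock trend.

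Whether the replicate numbers pair arrays was not shown, so the replicate block is given as an alternative only. It left the count at 0 at times 4 and 8. At times 24 and 96 it gave 2 calls each (1 each without it), TUBB2A passing at both (limma adjusted p = 0.00374 and 0.00288). At time 48 it gave 3, and STMN1 passed there (limma adjusted p = 0.0395).

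Over all probe sets, equal medians moved the share of higher calls: 49 of 177 for the mock trend (175 of 327 as reported), 2005 of 3252 for the difference in trend (2043 of 4419) and 14 of 14 at time 8 (67 of 84). Signals near 7.43 limit the folds of dim probe sets.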

Other observations

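The other members had these nearest genes by Pearson's r of log2 signal over the 21 arrays of the MYCN line, given as descriptions of arrays that share times and scaling. TUBB3 ran closest to RCAN1 (0.93), a calcineurin inhibitor, and to the beta-tubulin TUBB4B (0.90). Both tubulins were read by x_at probe sets, which may pick up some of the same transcripts. TUBB6 ran closest to EXT1 (0.91), an enzyme of heparan sulfate synthesis. STMN1 ran closest to SKA2 (0.93), a kinetochore protein, and TUBB2A to RAB22A (0.91). TUBA1C ran closest to PPIA (0.94), cyclophilin A, and to the alpha-tubulin TUBA1B (0.93). TUBG1 had no gene above TSPAN4 (0.79).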
